A study of Homo sapiens with 6 samples.

Results

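The 10 genes described here encode amino acid transporters of the plasma membrane. They were taken by name (SLC7A1, SLC7A5, SLC7A11, SLC3A2, SLC1A4, SLC1A5, SLC38A1, SLC38A2, SLC6A9 and SLC43A1), and all 10 have a row among the 19792 genes of the deposited table. RNA-seq was performed on BT-549 cells, a human triple-negative breast cancer line. An shRNA against WDR5 had been introduced on a tetracycline-inducible vector, with selection in puromycin. In the samples, 3 libraries came from cells treated with vehicle (0.1% DMSO) and 3 from cells treated with 500 ng/ml doxycycline (DOX), which switches the shRNA on. WDR5 is a subunit of the COMPASS complexes that methylate histone H3. The study silenced it to look for genes that depend on both the MUC1-C protein and the SET1A COMPASS complex. All 6 libraries carry the shRNA, and there was no library of DOX-treated cells without it.

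The only measurement used here is the mean normalized count of each gene. It is the authors' mean over all 6 libraries, vehicle and DOX together, after scaling of the counts for library size. No value of a single library or of 1 group was used. The levels therefore describe the silenced and unsilenced cells as 1 pool, without a spread, and no difference between DOX and vehicle was analysed here. Each group contributed 3 libraries to the mean. The level in either group can then be anything from 0 to 2 times the mean that is given. For the same reason the level of WDR5, with a mean normalized count of 1143, is no check of its silencing.

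Amino acid transporters fall into families by sequence and by how they are driven. Some take up amino acids together with sodium and can build up a gradient, whereas others are exchangers that release 1 amino acid for each that they import. Tumor cells use both kinds for glutamine, and exchangers for leucine and cystine. SLC3A2, also known as 4F2hc or CD98, is a single-pass heavy chain that carries no substrate by itself. It brings light chains of the SLC7 family, such as SLC7A5 (LAT1) and SLC7A11 (xCT), to the cell surface.

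The cells expressed the genes of a mesenchymal breast cancer line. All 6 mesenchymal markers looked up had a mean normalized count over 1000, with CD44 at 48038, VIM at 47782, FN1 at 30461 and the lowest, CDH2, at 4093. Of 6 epithelial markers, only KRT18 reached 100 (435), while CDH1 was at 59.6, KRT8 at 57.3 and EPCAM at 1.30. The estrogen and progesterone receptor genes ESR1 and PGR were at 0.790 and 0.801, whereas ERBB2 was at 1221. Of the blood and endothelial markers with a row, the highest by level per kb were PTPRC, PECAM1 and LYZ. Their mean normalized counts were 44.7, 2.86 and 0.316. The 4 markers other than PTPRC lay under 3, a mean normalized count at which few reads support a gene.

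The transporters were among the more abundant transcripts of these cells. Of the 10 genes, 8 had a mean normalized count of at least 1000, as did 27.9% of all listed genes. For scale, the widely expressed ACTB, EEF1A1 and GAPDH were at 183430, 155950 and 82531, and HPRT1 and TBP at 2473 and 568. The 10 genes held 0.326% of the summed mean normalized counts. A percentile was computed for each gene as the share of genes that were lower, among the 16597 whose mean was 1 or more. The median percentile of the 10 transporters was 97.1 before any division by length. SLC1A4 and SLC43A1 were the exceptions, since both were below the median of those genes, a mean normalized count of 388. With no minimum the median of all listed genes is 187, and SLC1A4 lies above it, whereas SLC43A1 stays below. The genes were chosen by name, with earlier results of these data known. The levels are a description, to which no test was applied.

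**Figure D1:**
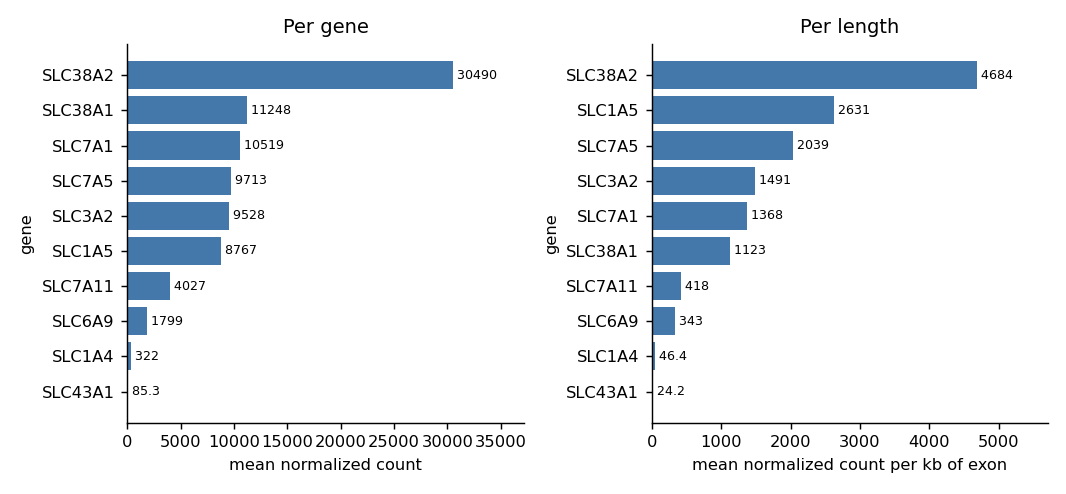
Levels of the 10 amino acid transporters over all 6 libraries, as the mean normalized count of each gene (left) and as the mean normalized count per kb of exon (right), with 1 bar for each gene and no error because the value is a single pooled mean. SLC38A2 is the highest in both panels, at 30490 and 4684, and SLC43A1 the lowest, at 85.3 and 24.2.

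A longer transcript gives more reads, so levels were also compared per length. The mean normalized count was divided by the summed length of all annotated exons of the gene in kb (GENCODE 44, GRCh38), which was found for 15596 of the 16597 genes. The highest and lowest transporter then differed 194-fold. The median percentile per kb of the 10 genes was 94.7, and 6 of them lay in the top 10% of genes on this scale. These 6 were SLC38A2, SLC1A5, SLC7A5, SLC3A2, SLC7A1 and SLC38A1.

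Sodium-coupled uptake of small neutral amino acids is carried out by SLC38A1 (SNAT1) and SLC38A2 (SNAT2), which import glutamine, alanine and serine. SLC38A2 lies on chromosome 12 of GRCh38 from 46358188 to 46372773 on the minus strand. Its mean normalized count was 30490. Per kb, its level was 4684, higher than that of 99.2% of genes, and made up 33.1% of the summed level per kb of the 10 transporters. SLC38A1 is encoded on the same strand, from 46183063 to 46270017, and the genes are 88.2 kb apart. Its mean normalized count was 11248, its exons add up to 10015 bases and its level per kb was 1123. Per kb, SLC38A2 exceeded SLC38A1 by 4.17-fold, and by 2.71-fold without division by length. SLC38A2 kept the first place with every length used.

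The SLC1 family members SLC1A5 (ASCT2) and SLC1A4 (ASCT1) exchange neutral amino acids, and SLC1A5 is a main glutamine transporter of many tumor cells. The levels of these paralogs lay far apart. SLC1A5, on chromosome 19 from 46774883 to 46788594 (minus strand), had a mean normalized count of 8767 and a level per kb of 2631, second to SLC38A2. SLC1A4, on chromosome 2 from 64988477 to 65023865 (plus strand), had a mean normalized count of 322 and a level per kb of 46.4. The level per kb of SLC1A5 was thus 56.7-fold that of SLC1A4, and the ratio was 26.8-fold when coding length was used. SLC1A4 was lower per kb than most genes, as only 40.2% lay below it.

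The system L transporters import leucine and other large neutral amino acids. SLC7A5 (LAT1) lies on chromosome 16 from 87830023 to 87869507 (minus strand), with a mean normalized count of 9713 and a level per kb of 2039. SLC43A1 (LAT3), which carries the same kind of substrate without a heavy chain, was the lowest of the 10 transporters. It lies on chromosome 11 from 57484534 to 57515780 (minus strand), and its mean normalized count was 85.3, or 24.2 per kb. Per kb, SLC7A5 exceeded SLC43A1 by 84.3-fold. Its relative SLC43A2 (LAT4), which is not among the 10, was at 247 per kb, above SLC43A1. A processed pseudogene of SLC7A5, SLC7A5P2, has a row of its own with a mean normalized count of 22.4. How reads shared by near-identical sequences were assigned is not given in the sources used here.

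SLC3A2 encodes the heavy chain and lies on chromosome 11 from 62856004 to 62888880 (plus strand). Its mean normalized count was 9528. Per kb, SLC3A2 was at 1491, which is 0.607 of the sum of SLC7A5 and SLC7A11. This ratio turned over with the choice of length. The exons of the 41 annotated transcripts of SLC3A2 add up to 6392 bases, while its longest transcript has 2843. With the longest transcript of each gene as the length, SLC3A2 was at 1.31 times the sum of its 2 light chains, and with coding length at 0.530. Whether the heavy chain transcript is above or below those of its light chains in these cells is thus not settled by the mean.

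Cystine enters through SLC7A11 (xCT), which releases glutamate in exchange and supplies cysteine for glutathione. The gene lies on chromosome 4 from 138164097 to 138242349 (minus strand), with a mean normalized count of 4027. Its annotated exons are long (9645 bases), so that the level per kb was 418, above that of 82.0% of genes. Per kb, SLC7A5 was 4.88-fold higher than SLC7A11, and 2.38-fold higher by coding length. Among the 6 light chains of SLC3A2 that were looked up, SLC7A5 made up 79.3% and SLC7A11 16.2% of the summed level per kb. SLC7A6 added 4.29%, and SLC7A7, SLC7A8 and SLC7A10 had mean normalized counts of 15.9, 5.16 and 0.458.

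SLC7A1 (CAT1) imports arginine and lysine and needs no heavy chain. It lies on chromosome 13 from 29509414 to 29595688 (minus strand), with a mean normalized count of 10519 and a level per kb of 1368. Its relative SLC7A2 (CAT2) was far lower, with a mean normalized count of 66.2 and 8.37 per kb. SLC6A9 (GLYT1) takes up glycine with sodium and chloride. It lies on chromosome 1 from 43991500 to 44031467 (minus strand), and its mean normalized count was 1799, or 343 per kb, above that of 78.3% of genes.

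**Figure D2:**
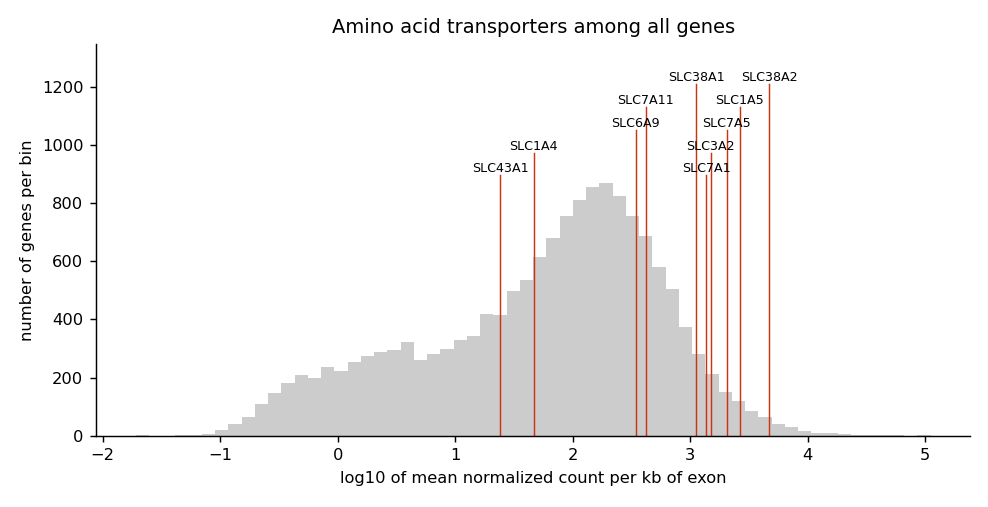
Distribution of genes by level, with the log10 of the mean normalized count per kb of exon on the x axis and the number of genes in each bin on the y axis. Grey bars hold the 15596 genes with a length whose mean was 1 or more, and each red line marks 1 of the 10 transporters. Among the transporters, only SLC1A4 and SLC43A1 fall below the median of 84.6 per kb.

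The order within the upper group depended on the length used. Of the 45 pairs of transporters, 42 kept their order when the longest transcript replaced the summed exons, 38 with coding length and 36 with no division by length. SLC38A2 was first, SLC1A4 ninth and SLC43A1 last with each of these lengths. SLC1A5 ranged from the second to the sixth place, SLC38A1 likewise, and SLC3A2 from the second to the sixth. Adjacent levels per kb from SLC1A5 to SLC38A1 differed from each other by between 1.09-fold and 1.37-fold. Without a spread over libraries, the order of these 5 genes is not established, even in the pooled mean.

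**Figure D3:**
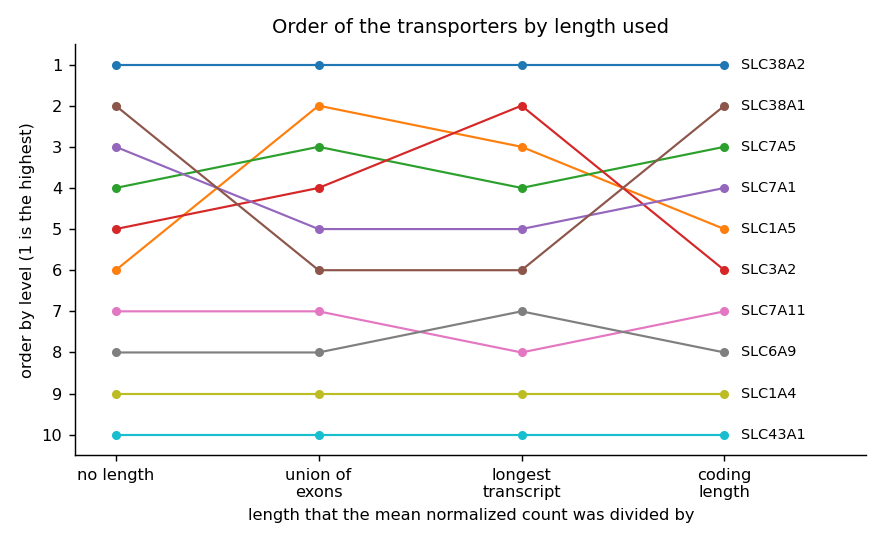
Order of the 10 transporters by level (y axis, 1 is the highest) with the mean normalized count left as it is or divided by the summed exons, the longest transcript or the coding length (x axis), with 1 line for each gene. The lines of SLC38A2, SLC1A4 and SLC43A1 are flat, whereas those of SLC1A5, SLC38A1 and SLC3A2 cross most of the upper group.

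The 10 transporters were set beside 31 other plasma membrane amino acid transporters of the same or related families, of which 24 have a row. Of these 24, 5 reached a mean normalized count of 1000, 7 reached 100 and 10 reached 10, against 8, 9 and 10 of the 10. The 10 genes held 93.4% of the summed level per kb of all 34 genes, and 88.9% of their summed mean normalized counts. The top 8 places per kb were all taken by the 10 transporters. This did not hold without division by length. SLC43A2, SLC6A6 and SLC6A15, with mean normalized counts of 2624, 2190 and 1860, were then above SLC6A9 at 1799. The highest of the other genes were SLC6A6, a taurine transporter, at 265 per kb, SLC43A2 at 247 and SLC36A4 at 140. SLC1A4 and SLC43A1 lay below 6 and 7 of the other genes. The alternative heavy chain SLC3A1 had a mean normalized count of 1.26.

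**Figure D4:**
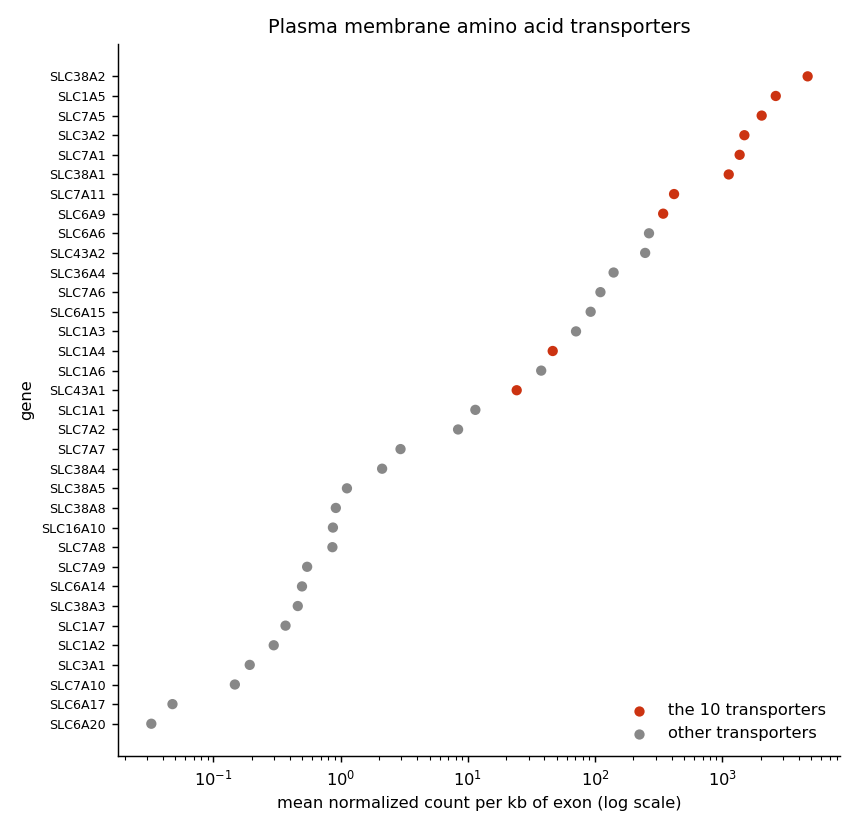
Level of 34 plasma membrane amino acid transporters, as the mean normalized count per kb of exon over all 6 libraries on a log scale (x axis), with 1 point for each gene in order of level (y axis). Red points are the 10 transporters described here, and 8 of them are above every grey point, from SLC6A9 at 343 to SLC38A2 at 4684, while SLC1A4 and SLC43A1 lie among the grey points.

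Carriers of the lysosomal membrane, which return amino acids from degraded protein to the cytosol, had levels per kb from 65.4 for SLC38A9 to 132 for SLC38A7. The 5 with a row had mean normalized counts from 326 for SLC66A1, listed under its older symbol PQLC2, to 881 for SLC38A7, with SLC38A9 at 577 and CTNS at 544. Among 7 genes of enzymes that use imported amino acids, or glutathione made from them, 5 reached a mean normalized count of 1000. GPX4, the glutathione peroxidase that reduces lipid peroxides, was the highest at 4066 (2210 per kb), followed per kb by GCLM at 425 and GSS, the glutathione synthetase, at 232. The glutamate-cysteine ligase subunits GCLM and GCLC, which join glutamate to cysteine, had mean normalized counts of 2303 and 1211. ASNS, which makes asparagine from aspartate and glutamine, was at 40.9.

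Some transporter genes share their locus with another gene. SLC6A9 overlaps CCDC24 on the other strand by 5029 bases, and the mean normalized count of CCDC24 was 54.2. SLC7A11-AS1, antisense to SLC7A11, was at 1.49. The libraries keep the strand, but whether the strand was used in counting is not given in the sources used here.

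Transcription of many amino acid transporter genes rises when amino acids are scarce, through ATF4 at amino acid response elements. Promoter windows of RefSeq (GRCh38.p14, from 250 bases before to 50 after a start site) were searched for the core TGATGNAAN of this element on both strands. Windows were found for 9 of the 10 genes (not for SLC7A11), 16 in all because several genes have more than 1 start site. The core was in 5 of the 16 windows, each of a different gene, and in 3.61% of all 35116 windows. The 5 matches are shown as a description of sequence, and no test was made of them. Each is written 5′ to 3′ on the strand of its gene with up to 10 bases on either side and with the core in capitals, which reads in reverse complement for SLC1A4 and SLC3A2.
SLC1A5, chr19:46784893-46784921 (minus strand): aggaagtggcTGATGCAAGctgtccaggg
SLC38A1, chr12:46266502-46266530 (minus strand): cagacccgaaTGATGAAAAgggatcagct
SLC7A1, chr13:29595663-29595691 (minus strand): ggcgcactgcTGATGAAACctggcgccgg
SLC1A4, chr2:64989381-64989409 (plus strand): gcggctcccgTTTGCATCAtctccagccg
SLC3A2, chr11:62881725-62881748 (plus strand): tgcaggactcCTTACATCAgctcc
Of the 5, only the match of SLC1A5 lies wholly before its start site, with its first base 97 bases ahead of the site. Those of SLC38A1 and SLC1A4 reach the start site, and those of SLC7A1 and SLC3A2 lie after it. Apart from that of SLC7A1, these start sites lie inside the annotated span of the gene. A match describes the letters of the window and not binding. The 5 genes ranged in level from 46.4 per kb for SLC1A4 to 2631 per kb for SLC1A5. SLC38A2, the most abundant transporter, had no match in the sequence searched, and sequence outside the windows was not searched. The E-box CACGTG, bound by MYC and related factors, was in 3 of the 16 windows (SLC1A5, SLC43A1 and SLC7A5) and in 7.26% of all windows. The core TGACNNNGC of the antioxidant response element was in 4 of the 16 (SLC1A5, SLC3A2, SLC7A1 and SLC7A5) and in 13.3% of all windows.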

How the data were processed

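RNA-seq was done on 3 vehicle and 3 DOX libraries of BT-549/tet-WDR5shRNA cells. By the paper's methods, the authors made stranded mRNA libraries from triplicate cultures, aligned reads to GRCh38 with STAR and normalized gene counts with DESeq2. The counter and any filter on low counts are not given in the sources used here. The deposited column of means is a signal (mean normalized counts over all libraries, by the authors). The 5 other columns hold the authors' own comparison of DOX with vehicle (fold change, its error, statistic, p and adjusted p) and were not used, so no test was made. Library depth and the spread between cultures are unknown from the mean, and intervals were not given.

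Of 19792 symbols, 17729 matched GENCODE 44 directly, 593 through a RefSeq synonym and 1470 not at all. Lengths were the union of exons, the longest transcript or the longest coding length. Percentiles used genes with a mean of at least 1. All 10 members were named, with the 3 highest genes per kb of each other list. Other genes, such as the ends of a range or relatives of a member, were picked for the text after their values were seen. A few genes are not reported here. The members and lists were chosen with earlier results of these data known. Tools were Python 3.11.15, pandas 2.3.3, numpy 2.4.6, matplotlib 3.10.9 and scipy 1.17.1.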

Additional observations from a re-analysis of the deposited data

How the results depend on the processing

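The ratio of SLC3A2 to the sum of SLC7A5 and SLC7A11, 0.607 per kb of summed exons, went above 1 only with the longest transcript as the length, at 1.31. It was 0.530 with coding length, 0.693 with no division by length and 0.580 with the other light chains added. The longest transcript shortens SLC3A2 most, from 6392 to 2843 bases. The median percentile of the 10 transporters was 97.1 with the minimum of 1 on a gene's mean, 97.6 with no minimum and 96.4 with a minimum of 10, since the minimum removes low genes from the comparison. The lowest members moved more. The percentile of SLC1A4 went from 47.0 to 55.6 with no minimum, above the median gene, and to 35.1 with a minimum of 10. That of SLC43A1 went from 33.7 to 44.4 and 18.8. Leaving out a library was not run. No paired analysis was possible because values of single libraries were not used here, and the same holds for any test of DOX against vehicle. The mean sets no limit to the ratio between the groups, and counting error is unknown for the low genes SLC43A1 and SLC1A4.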
